A study of Homo sapiens with 5 samples.

Results

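The peaks found with both probe pools were the peaks of the Odd list that shared at least 1 bp with any peak of the Even list. They were chosen by the positions in both deposited peak lists, and the gene of the bait RNA, SNHG5, was left out. Of 899 Odd peaks outside SNHG5, 354 had an Even partner, which is 39.4% (95% Wilson interval 36.2 to 42.6). Of 8617 Even peaks outside SNHG5, 365 were partners, which is 4.24% (3.83 to 4.68). Pileups, fold enrichments and p-values of both lists decide which peaks are listed, so they are given below as descriptions and were not tested. RNA was retrieved from HCT116, a human colorectal carcinoma cell line, with biotinylated DNA oligonucleotides against SNHG5 that were split into an Odd and an Even pool. The series holds 2 Odd libraries, 1 Even library and 2 control libraries, all from HCT116 cells cross-linked with glutaraldehyde. The control libraries carry the label input, while the methods name a luciferase probe pool as the reference. Each pool has 1 peak list, so no value has a replicate error, and the lists hold no expression levels with which the cell line could be checked.

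SNHG5 is a host gene of small nucleolar RNAs, whose introns carry the snoRNAs and whose spliced exons form a long noncoding RNA. In an RNA interactome assay, antisense oligonucleotides pull down the bait together with RNAs cross-linked to it. Splitting the oligonucleotides into pools that tile different parts of the bait is a usual precaution, because an RNA that reaches the beads through the bait is recovered by either pool. An antisense oligonucleotide can also hybridise to any RNA that carries a stretch of the bait's sense sequence.

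The stretches that the shared peaks most often had in common with SNHG5 are shown first. Each is 30 bases of hg19 read 5′ to 3′, on the strand of the gene (for the intergenic peaks, on the strand with the longer run), and capitals mark the longest exact run that the window of 250 bp to either side of the Odd summit shared with spliced SNHG5. For SNHG5 itself the capitals mark the 10 nt that more of these windows held on the sense strand than any other 10 nt of SNHG5, 91 of 293 (31.1%), called the core below, at positions 718 to 727 of the canonical transcript of 1316 nt. The members, FCGBP apart, were picked for a run over the core, from introns, 3′ UTRs, coding sequence and intergenic peaks. Such a run, of at least 10 nt, was in 70.1% of intronic, 48.6% of 3′ UTR and 26.7% of coding shared windows of known strand. Windows of ANKHD1, DNAJC21, GOLGA1 and SPATS2, among others, had their longest run elsewhere and are not shown.
SNHG5 spliced exon, chr6:86387166-86387195, minus strand: gcccattgatAGAGGCCAGAttgtcttgga
FAM193B intron, chr5:176969256-176969285, minus strand: gctggtaagTGATAGAGGCCAGgattaatg
EFL1 intron, chr15:82498011-82498040, minus strand: ttaacaatgTAGAGGCCAGATaattaggga
PCCA intron, chr13:100945922-100945951, plus strand: tatttaaaaTGATAGAGGCCAGggctctca
STAT3 intron, chr17:40469763-40469792, minus strand: aaaatgtggTAGAGGCCAGATTagtgctgg
Intergenic peak, chr15:59875184-59875213, plus strand: tgtagatCCATTGATAGAGGCCAGgcaggg
PECR 3′ UTR, chr2:216903632-216903661, minus strand: attgtaaaggTAGAGGCCAGAcgcagtggc
IRX4 3′ UTR, chr5:1877807-1877836, minus strand: tcggagcagaAGAGGCCAGATaccctgaag
CPNE1 coding exon, chr20:34220091-34220120, minus strand: accatggaggTAGAGGCCAGAaacctagat
RPGRIP1L coding exon, chr16:53720447-53720476, minus strand: tcagtcacaaAGAGGCCAGATagaggagtt
PITRM1 coding exon, chr10:3197873-3197902, minus strand: ctttatcgatGAGGCCAGATgacaagtatc
FCGBP coding exon, chr19:40424493-40424522, minus strand: gtctccctgAGTGAGGGTCGCctgcgtgtg
The FCGBP window is shown because its run lies on a second, rarer spot of SNHG5, at positions 691 to 702, just before the core.

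At shared peaks, runs of SNHG5 sequence were concentrated on this spot of the canonical transcript. The isoform that the study took as SNHG5 is shorter, so positions of the canonical transcript need not lie in it. Any sequence of that isoform that the canonical transcript lacks was not searched. For the core, the reverse qPCR primer that the study lists for SNHG5 is complementary to a stretch that holds all of it. Windows whose summit lay in genes of a single strand were read on that strand and searched for exact runs of at least 10 nt. In 101 of 144 intronic windows, 70.1% (95% Wilson interval 62.2 to 77.0), such a run covered the middle of the core. In exonic windows the count was 47 of 149, 31.5% (24.6 to 39.4). Among Odd peaks without an Even partner it was 47 of 187 in introns, 25.1% (19.5 to 31.8), and 23 of 314 in exons, 7.32% (4.93 to 10.8). The intervals of shared and unpaired peaks did not overlap in introns or in exons, and they cover counting error only. The spot was picked on the shared peaks themselves, so these shares are a description, and no test was made.

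Windows away from the summits and peaks of the Even pool alone were searched the same way. In windows 5 kb to the right of the shared summits, 0 of 144 beside intronic and 0 of 149 beside exonic summits had a run over the core. These windows took region and strand from the summit, so those beside exonic summits need not lie in exons. Among the best Even peaks without a partner it was 2 of 302 in introns and 1 of 372 in exons. In those intronic Even peaks the most frequent spot was at position 51 of SNHG5, with 81 of 302 windows, 26.8%. In the exonic Odd peaks without a partner the most frequent spot was at position 583, with 37 of 314 windows, 11.8%. Farther than 50 nt from the core, no position of the canonical transcript reached more than 10 of the 144 intronic or 6 of the 149 exonic shared windows.

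**Figure D1:**
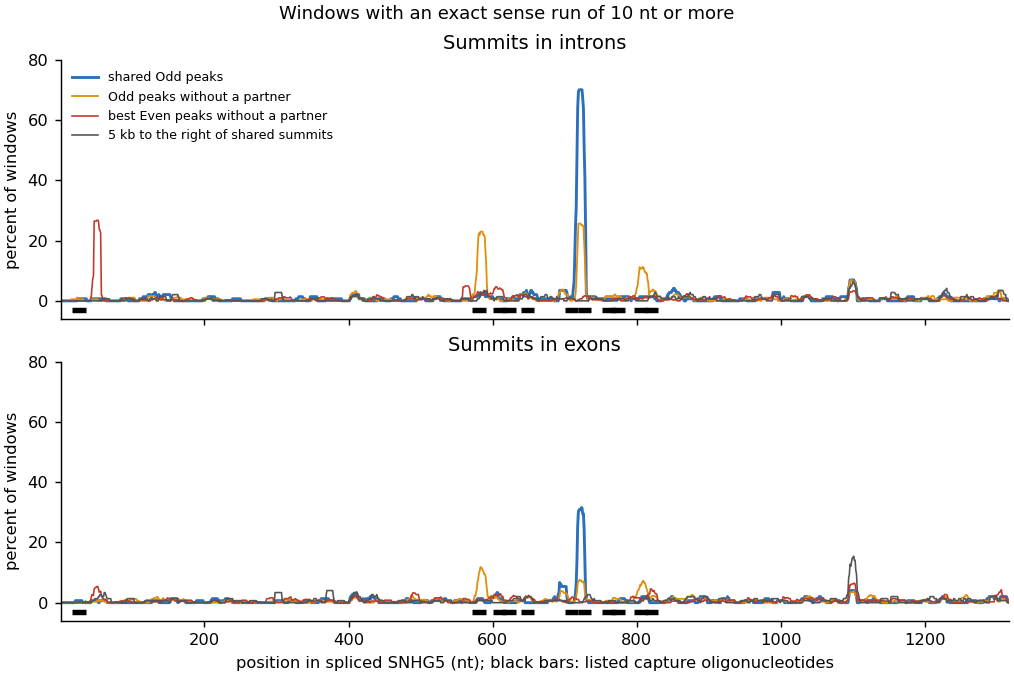
Percent of windows with an exact sense run of 10 nt or more over each position of spliced SNHG5 (nt), for summits in introns (top) and exons (bottom). Lines stand for shared Odd peaks, Odd peaks without a partner, the best Even peaks without a partner and windows 5 kb to the right of the shared summits, and black bars mark the 11 of 20 listed capture oligonucleotides with an exact match. The blue line stands at 70.1% in introns and 31.5% in exons over the core and near 0 elsewhere.

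The core itself, AGAGGCCAGA, was then counted whole and on both strands. It occurred on either strand in 114 of 341 shared windows on reference chromosomes, 33.4% (28.6 to 38.6), against 18.2% of all 885 Odd windows and 2.02% of all 8402 Even windows. It occurred in 0 of 341 windows 5 kb to the left and in 0 of 341 to the right, where a count of 0 allows a share of up to 1.11% by the Wilson interval. Of 35116 RefSeq promoter windows of 300 bases (GRCh38.p14), 0.271% held it. In shared introns it lay on the sense strand in 64 windows and on the opposite strand in 2, and in shared exons in 27 and 1. By region of the summit it was in 72 of 157 intronic, 14 of 33 intergenic, 10 of 38 3′ UTR, 16 of 90 coding, 2 of 16 noncoding exon and 0 of 7 5′ UTR windows.

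The core lay close to the summits. Its median distance from the Odd summit was 41 nt in introns and 40 nt in exons, and 92.3% of the 65 intronic and 92.6% of the 27 exonic copies lay within 100 nt. From the Even summit the medians were 52 and 57 nt. Intronic members with the core had a median Odd fold enrichment of 63.4 and those without it 47.9, with wide overlap, from 1.63 to 271.0 and from 5.02 to 351.4. Coding members with and without the core had medians of 14.5 and 13.2.

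Of the 20 capture oligonucleotides listed by the study, 11 matched the canonical SNHG5 transcript exactly, and the other 9, as read here, had no exact match and were not placed. Numbers 13 and 15 abut on the core: the first targeted positions 700 to 719 and the second positions 719 to 737, and they covered 2 and 9 of the 10 core nucleotides. Number 3 targeted positions 572 to 591, which include the spot at position 583 of the exonic Odd peaks without a partner. Some of the 9 that were not placed hold the complement of all 10 nt at positions 693 to 702, within the second spot. The list was read from extracted text, and the pool of each oligonucleotide was not used here. Whether the shared peaks, or those without a partner, were retrieved through SNHG5 or by the oligonucleotides directly was not tested.

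Sequence complementary to SNHG5 was counted in the same windows. A run of at least 11 nt complementary to spliced SNHG5 was found in 16% of shared intronic windows (10.9 to 22.8) and in 22.5% (17.1 to 29.0) of those of Odd peaks without a partner. In windows 5 kb to the left and right of the shared intronic summits it was found in 25.7% (19.3 to 33.4) and 27.8% (21.1 to 35.6). At exonic summits it was found in 17.4% of shared windows (12.2 to 24.3) and 25.5% of unpaired Odd windows (21.0 to 30.6). In the windows 5 kb to the left and right of shared exonic summits it was found in 20.8% (15.1 to 28) and 15.4% (10.5 to 22.1). Those flanking windows need not lie in exons. The share at shared summits was thus the lowest of the 4 for intronic summits. For exonic summits it lay between the flanks, and no test was made. With all 89 annotated SNHG5 transcripts as the target, sense runs of at least 11 nt were near saturation. They were in 95.6% of 293 shared windows and in 95.8% of the windows 5 kb to the right of intronic summits. The canonical transcript is therefore used throughout.

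The partners were among the stronger Even peaks, but many were weaker than any peak of the Odd list. Among the 2155 best Even peaks by p there were 252 partners, 11.7%, and among the 2154 weakest there were 5, 0.232%. The median −log10 p was 25.045 for partners and 6.68 for Even peaks without a partner. The median partner ranked 1372.5 by p in the Even list, and 113 partners were among the 905 best Even peaks, the length of the Odd list. The partner's −log10 p was below the smallest value in the Odd list, 26.7, in 185 pairs, and the lowest was 3.70. After the limit on duplicate tags the Even pool kept 1965614 of 55933565 tags and the Odd pool 4904959 of 150214135. The peak caller multiplied Even pileups by 2.03 to reach the depth of the control, and before this scaling 111 partners, 31.4%, rested on at most 10 extended tags. Of the 225 Odd peaks with the smallest p 60.9% had a partner, and of the 224 with the largest p 25%.

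The summits of both pools lay close together. The median distance was 26 bp, with quartiles of 10 and 70 bp. It was at most 50 bp in 236 of 354 pairs, 66.7%, and 0 in 6. In 346 pairs each summit lay inside the other peak. The Odd peaks had a median length of 572 bp and the partners of 507.5 bp, and the median pair covered 84.8% of the Odd peak. A single Even partner was found for 344 Odd peaks, 2 for 9 and 3 for 1, and no Even peak had 2 Odd partners. By region the median distance was 17 bp in coding sequence, 26.5 bp in 3′ UTRs, 31 bp in introns and 20 bp between genes.

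The widest pair lay in an intron of TMEM242, where a 4416-bp Odd peak with 3 Even partners had its summit 3504 bp from that of the Even peak with the largest overlap. The next 7 pairs, all at 909 bp, were a single case. A peak in an intron of MSH5, which encodes a meiotic recombination protein in the major histocompatibility region, had pileups of 252 and 399, and so did 5 peaks on alternative haplotypes of chromosome 6. A sixth had 250 and 399. Another peak, with 34 and 10, was repeated on 5 sequences of that chromosome. In all, 13 shared peaks fell outside the annotated reference chromosomes. Elsewhere TCAF1 and MYSM1 had the largest distances, 405 and 324 bp, both in 3′ UTRs.

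The Even pileup, the number of extended tags at the summit, was lower than the Odd pileup in most pairs. The median pileup was 83 for Odd (quartiles 44 and 168.2, range 21 to 1558) and 34 for Even (18 and 75, range 6 to 1938). The median ratio of Even to Odd was 0.404, a log2 value of -1.31. Each pool's pileups were also divided by the depth to which they were scaled, 4904959 tags for Odd and 3986040 for Even. The median ratio was then 0.497, a log2 value of -1.01. Even was higher in 25 of 354 pairs as deposited and in 45 after that division. Of the 25, 6 were repeats of the MSH5 peak on alternative haplotypes, beside the MSH5 peak itself. A further 4 lay in SPATS2, 4 in ZNF652 and 2 in SNHG17, so the 25 are not separate loci. Across the 354 pairs Spearman's rho was 0.860 for pileups and 0.833 for fold enrichments. The pairs share the control libraries and the expression of each transcript, and they are not replicates.

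**Figure D2:**
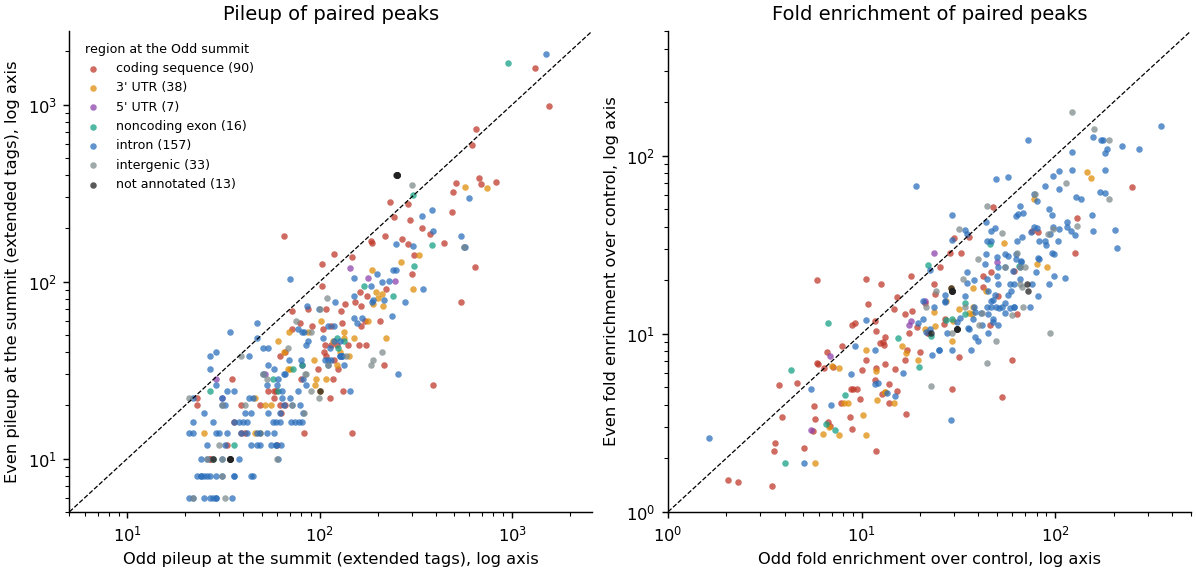
Even against Odd values of the 354 pairs, as pileup at the summit (left, extended tags) and fold enrichment over the local control (right), on log axes and coloured by region, with a dashed line of equality. Points lie mostly below the line, and intronic peaks reach the highest fold enrichments at low pileups.

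The highest pileups in both pools were mixed in origin. By the smaller of both pileups the first lay in an intron of ZNF652, a zinc finger gene, at chr17:47416555-47419425, with 1501 for Odd and 1938 for Even. Its fold enrichments were only 1.63 and 2.59. This peak holds a copy of SNHG5: 170 nt aligned to positions 693 to 861 of the spliced transcript at 97.6% identity and 138 nt to positions 557 to 692 at 93.5%. No other shared peak aligned to SNHG5 over more than 25 nt. The other 4 shared peaks in introns of ZNF652 had Odd pileups of 27 to 47, and the Even pileup was higher in 4 of all 5.

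AKAP12, which encodes an anchoring protein for protein kinase A, had 1558 and 981 in its large coding exon, with fold enrichments of 2.03 and 1.51. Its Odd pileup is next to the 1560 that the limit on duplicate tags allows. The Odd pileup of 1501 in ZNF652 was also over 90% of this limit. No Even partner was over 90% of the Even limit of 2352, so the higher Even pileup in ZNF652 may be affected by the Odd limit. SNHG17, another snoRNA host, had 948 and 1723 in exon 8 and 306 and 308 in exon 1, with Even above Odd in both. HSPA5, an endoplasmic reticulum chaperone, had 823 and 365 with fold enrichments of 3.43 and 1.40. Its processed pseudogene HSPA5P1 was also a member, with 310 and 123, and reads of such near copies may be divided between them. These 4 genes had fold enrichments below the median of 34.7 for Odd, whereas SOCS6, with pileups of 570 and 342, and FAM193B, with 385 and 253, also had high fold enrichments, given below.

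Introns held the largest class of shared summits. The study itself left out peaks in introns as most likely errors of the peak shift, and they are kept here. Of 354, 157 lay in introns, 44.4% (39.3 to 49.6), 90 in coding sequence, 25.4% (21.2 to 30.2), 38 in 3′ UTRs, 10.7%, 33 between genes, 9.32%, 16 in noncoding exons, 4.52%, and 7 in 5′ UTRs, 1.98%. Among the 545 Odd peaks without a partner, 35.8% (31.9 to 39.9) were intronic and 36.5% (32.6 to 40.6) coding. Among Even peaks without a partner, 49.8% were intronic and 21.0% coding. Of the 135 shared summits in mRNA exons 66.7% (58.4 to 74.1) were coding, against 66.7% of all 433 such Odd and 66.9% of all 2728 such Even peaks. This coding share therefore did not set the shared peaks apart from either list. Both summits fell in the same region in 335 pairs, 94.6%.

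**Figure D3:**
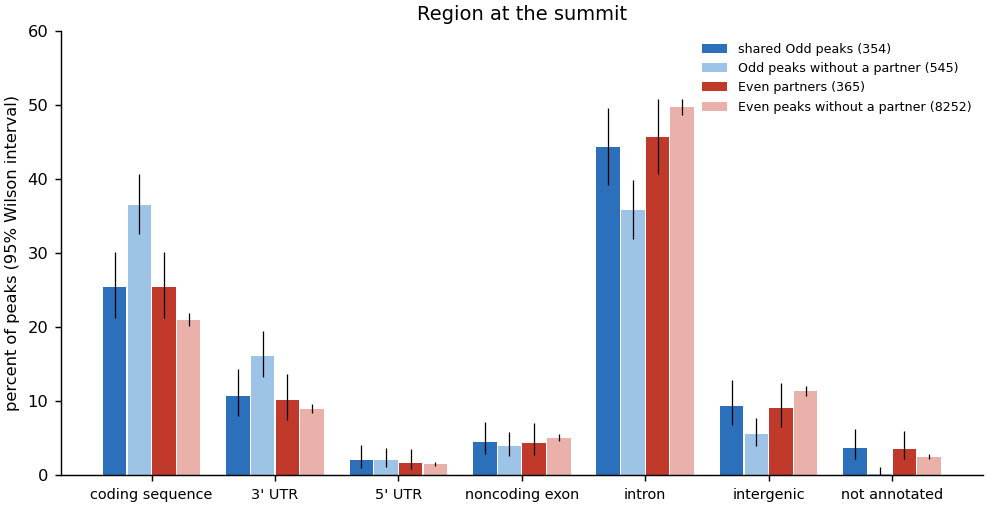
Percent of summits in each region with 95% Wilson intervals (counting error only) for shared Odd peaks, Odd peaks without a partner, Even partners and Even peaks without a partner. Shared peaks stand at 44.4% in introns and 25.4% in coding sequence, and unpaired Odd peaks at 35.8% and 36.5%.

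Intronic and intergenic members had low pileups and high fold enrichments. Their median Odd pileups were 60 and 72 and their median Odd fold enrichments 54.7 and 59.9, against 127 and 13.2 in coding sequence. The fold enrichment reached 100 in 28 of 157 intronic and in 3 of 90 coding members. By the smaller of both fold enrichments the leading introns were in ANKHD1, with 351.4 for Odd and 146.8 for Even, and in FAM193B, with 156.4 and 126.7. Next, at the same Even value of 123.1, were EFL1 with 171.5 and NR2F2-AS1 with 175.7 for Odd. Runs of 13 nt in FAM193B and 12 nt in EFL1 covered the core, whereas in ANKHD1 and NR2F2-AS1 the longest sense runs were of thymines and cytosines far from it. Between genes the chromosome 15 peak shown above had 158.8 and 142.1, with a run of 17 nt over the core.

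In coding sequence the leading members were in GOLGA1, FCGBP and RPGRIP1L. GOLGA1, a golgin of the trans-Golgi network, had fold enrichments of 247.7 and 66.3 in exon 6. FCGBP, an IgG Fc binding protein of mucus, had 47.9 and 51.3, on pileups of only 23 and 22. RPGRIP1L, a protein of the ciliary transition zone, had 130.02 and 44.6 in exon 6.

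In 3′ UTRs the highest were DNAJC21, a ribosome biogenesis factor, with 146.1 and 81.1, PECR, a peroxisomal enoyl-CoA reductase, with 152.4 and 75.2, and SOCS6, a suppressor of cytokine signalling, with 77.2 and 57.1. In 5′ UTRs PIK3R1, the regulatory subunit of phosphoinositide 3-kinase, had 50.2 and 25.3, and both peaks of CDC42SE2 lay between 15.2 and 28.4. In noncoding exons an unnamed gene on chromosome 2 (ENSG00000261096) had 45.8 and 31.8 and one on chromosome 22 (ENSG00000288834) had 64.7 and 23.9. LINC00863 followed with 21.9 and 24.3.

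Genes with several shared peaks in exons were few. Of 147 genes with a shared peak that overlapped an exon, 127 were protein coding, 16 had 2 or more and 8 had 3 or more. Over all Odd peaks, 69 of 455 genes with a peak in exons had 2 or more, so small numbers are not particular to the shared peaks. SPATS2 had 13, CASC3, LRPPRC, PITRM1 and SLC27A2 had 4 each, and CEP128, RPGRIP1L and NEMF had 3 each. In the 8 genes together 38 peaks were shared. CASC3 alone of these had an exonic Odd peak without a partner.

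SPATS2, a cytoplasmic RNA-binding protein, had the most shared peaks in exons of any gene. Its 13 shared summits lay in 13 of the 14 exons of the canonical transcript, with exon 6 alone lacking one. They ran from position 112 to position 2004 of its 3240-nt mRNA, through the 5′ UTR and the coding sequence, and none lay in the 3′ UTR. In exon 14 the pileup was 1313 for Odd and 1608 for Even, and in exon 13 it was 650 and 732. In exon 2 it was 31 and 22, the lowest. Odd and Even values stayed close, with a median log2 ratio of -0.08 against -1.31 over all pairs, and Even was higher in 4 of 13. The summits lay 1 to 214 bp apart, with a median of 9 bp. Fold enrichment took another course: it was highest in exon 10, at 30.1 for Odd and 34.5 for Even, and lowest for both in exon 7, at 3.72 and 5.14.

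**Figure D4:**
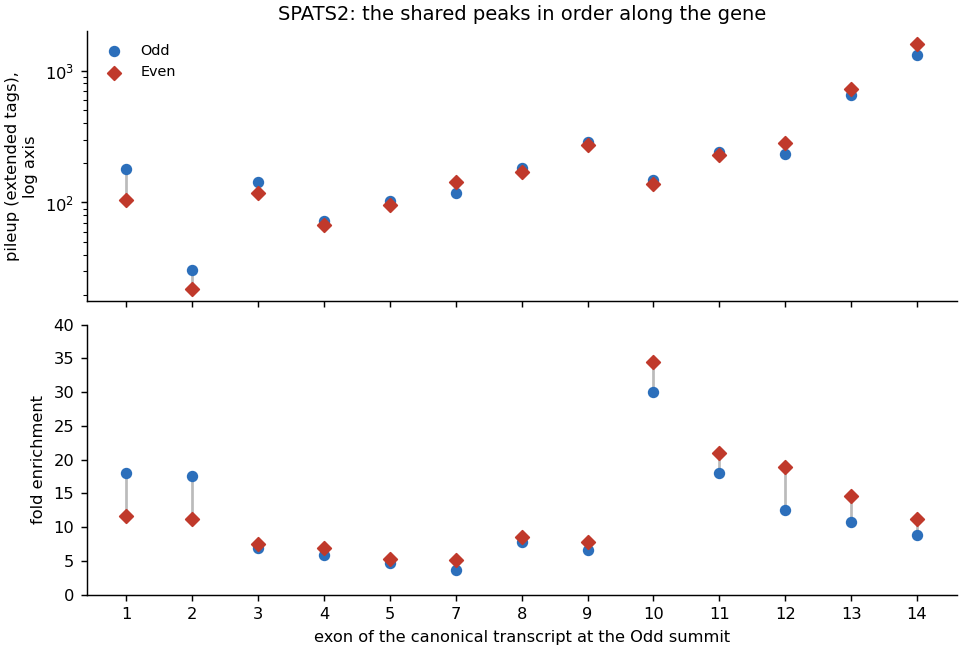
Pileup (top, log axis) and fold enrichment (bottom) of the 13 shared SPATS2 peaks for Odd (circles) and Even (diamonds), in order along the gene and labelled by exon of the canonical transcript. Pileup rises to 1313 and 1608 in exon 14, and fold enrichment is highest in exon 10.

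As in SPATS2, the peaks of most of the other genes sat on neighbouring exons of 1 mRNA. Neither the 13 SPATS2 peaks nor those of these genes are independent sites. PITRM1, a mitochondrial peptidase, had its 4 summits in exons 13 to 16 of 27. They spanned 7281 bp of the genome and 361 nt of the spliced mRNA. Odd pileups were 288, 495, 268 and 129 from exon 13 to 16 and Even pileups 164, 322, 174 and 68, so both pools were highest in exon 14. LRPPRC, a regulator of mitochondrial mRNAs, had summits in exons 25 to 28 of 38, within 263 nt of mRNA. Its Odd pileups were 136, 219, 342 and 513 and its Even pileups 75, 180, 200 and 360, rising from exon 25 to 28 in both pools.

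SLC27A2, a very long chain acyl-CoA synthetase, had summits in exons 7 to 10 of 10, within 270 nt of mRNA. Its Odd pileups were 60, 113, 125 and 23 and its Even pileups 12, 22, 32 and 20. CEP128, a centriolar protein, had summits in exons 16 to 18 within 214 nt of mRNA, and RPGRIP1L in exons 5 to 7 within 199 nt. The pairs in MFF, USP34 and GOLGA1 lay within 60, 68 and 43 nt of mRNA, although 1632, 2862 and 973 bp apart in the genome. MFFP2, a pseudogene of MFF, was itself a member with 73 and 32, so reads of MFF may be divided between both. In the wider genes the pools thus marked short stretches of spliced mRNA.

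CASC3, a core component of the exon junction complex, spread more. Its summits lay in exons 1, 5, 6 and 7, within 818 nt of mRNA. The Odd pileups were 132, 685, 674 and 643 and the Even pileups 24, 358, 383 and 121. The exon 1 partner had the lowest −log10 p of any partner, 3.70. NEMF, a component of ribosome-associated quality control, had 3 shared peaks on exons 11 and 12 and next to them, and 2 more in introns. The strongest of the 5 was intronic, with 190 and 79.

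Runs over the core were also counted in spliced mRNAs, where a run may cross an exon junction. The core was picked on shared peaks, exonic ones included, so a higher share there is no independent result and was not tested. Of 145 shared summits placed in a canonical mRNA, 57 had a run of at least 10 nt over the core within 250 nt, 39.3% (31.7 to 47.4), against 30 of 287 unpaired, 10.5% (7.42 to 14.5). By gene it was 47 of 110, 42.7% (33.9 to 52.1). CEP128 had a run of 13 nt, and GOLGA1, USP34, RPGRIP1L and ZNF335 had 11 nt each. SPATS2 and PITRM1 had 10 nt. In CASC3, LRPPRC, SLC27A2, NEMF and SNHG17 the longest run over the core was 6 to 8 nt. The CASC3 mRNA held a run of 12 nt from the second spot, at positions 693 to 704 of SNHG5. That spot was matched within 250 nt by 11 of the 145 shared summits, 7.59%, and by 12 of the 287 unpaired, 4.18%.

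Gene lists were counted for members with a shared peak in exons, beside 147 of 62296 annotated genes, 0.236%. The annotated genes include noncoding genes and pseudogenes, whereas 127 of the 147 were protein coding, so that share is only a rough reference. Outside the candidates and the zinc finger genes, at most 1 gene per list had such a peak, too few to set these lists apart. All 11 candidate targets of the study had one, which is no independent evidence, since the study chose them on these libraries. Of the 10 whose summit was placed in a single canonical mRNA, 9 had a run of at least 10 nt over the core within 250 nt, 90% (59.6 to 98.2). Their peaks were among those on which the core was picked. These were CPNE1, DELE1, IRX4, PECR, WASHC3 and ZNF335 with 11 nt and GLE1, PITRM1 and SPATS2 with 10 nt. SOCS6 had 9 nt. COX15, an enzyme of heme A synthesis, overlaps another gene and was not placed, so the 90% leaves it out. Its genomic window lacked the core on the sense strand and held it on the opposite strand. Of the 149 exonic shared windows of known strand, it was the only 1 with the core on the opposite strand. COX15 was also unusual in its pileups, with 65 for Odd and 180 for Even.

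None of the 5 reference genes, GAPDH among them, had a shared peak. Of 12 genes of Staufen and nonsense-mediated decay XRN1 alone had one, with pileups of 27 and 10 for this exoribonuclease and a run of 12 nt over the core. Of 15 genes of STAT3 survival signalling none had one in exons, but an intron of STAT3, the transcription factor, held a peak with pileups of 249 and 164 and fold enrichments of 64.3 and 46.8. A run of 13 nt over the core lay 52 nt from its Odd summit. Of 29 snoRNA host genes SNHG17 alone had one, and of 97 ribosomal protein genes and 5 annotated abundant noncoding RNAs none. Of 510 zinc finger genes 7 had one, 1.37%: ZNF318, ZNF335, ZNF445, ZNF622, ZNF652, ZNF749 and ZNF786. ZNF749 had the highest fold enrichments of these in an exon, 81.3 and 37.2, next to 49.6 and 73.8 for the ZNF652 peak that touches an exon.

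At the edge of the rule the smallest overlaps were 55 bp in TCAF1 and 198 bp in MYSM1, and 238, 247 and 259 bp in HSPA5P1, PHF20L1 and AHCYL2. The nearest pairs left out were 170 bp apart in VEZF1, 171 bp in GTPBP1, 208 bp in ISG20L2 and in TEAD1, and 741 bp in TLE6. Odd pileups were 27 to 310 just inside and 60 to 93 just outside. No pair thus lay close to the limit of 1 bp.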

How the data were processed

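Trimming (cutadapt), alignment to hg19 (STAR) and peak calling for each pool (MACS 2.0.9) were done by the authors, using the pooled controls and a cutoff of p = 0.001. The deposited Even list nevertheless holds some peaks that fail this cutoff, with a −log10 p as low as 0.36. They were kept and counted among the 8617 Even peaks. The Odd list was then filtered for reproducibility between libraries, and the Even list was not. For its own peak set the study extrapolated the number of reproducible Even peaks from the Odd pool. It also removed peaks in introns, which it held to be most likely errors of the peak shift. The full deposited lists used here still hold intronic peaks. Each deposited list gives 1 value per pool and peak. These are the pileup (a coverage signal), the fold enrichment (a ratio to the local background of the control) and the −log10 p-value, all as deposited. Deposited −log10 q-values were not used, and 0 columns belonged to other samples. Tags kept per library pool set the precision, and duplicates were limited to 3 per position for Odd and control and 2 for Even.

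Overlaps, regions at summits (basic transcripts of GENCODE 44 on GRCh37), spliced positions and exact runs were computed with Python 3.11.15, pandas 2.3.3, scipy 1.17.1, pysam 0.24.0, BLAST 2.17.0 (largest E value 0.001) and matplotlib 3.10.9. bedtools 2.31.1 gave the same 354 Odd peaks and 365 partners in number. The overlap, region and run steps were tested on simulated data, where 350 of 350 planted overlaps, 12 of 12 regions and 200 of 200 runs were found. Members and gene lists were chosen with earlier results of these data known, and the core was chosen after the windows were searched. Named genes were those with 3 or more shared peaks in exons, the 10 largest smaller pileups, the 3 largest smaller fold enrichments per region, the 5 widest and the 5 most marginal pairs, and list genes. MFF, MFFP2, USP34, EFL1, PCCA, HSPA5P1 and the sequences shown were picked with their values in view. Intervals are 95% Wilson intervals.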

Additional observations from a re-analysis of the deposited data

How the results depend on the processing

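Of 39 alternative settings over 8 results, 22 stayed within the limits set for them and 17 moved. With as many of the best Even peaks as the Odd list holds, 113 Odd peaks had a partner, and 6 genes had 2 or more. With Even peaks at least as strong as the weakest Odd peak, 170 had one, and without intronic summits 189. Counted over gene bodies, 25 genes had 2 or more. By any overlap the coding share was 75.3% and the intron share 39.0%. The median summit distance was 19 bp in exons. The median log2 pileup ratio was -1.01 after division by the depth to which each pool was scaled and -0.76 with the best Even peaks. Sense runs against all SNHG5 transcripts moved to 81.6% within 100 bp, 99.7% at 10 nt, 71.0% at 12 nt, 52.2% with the canonical transcript and 52.1% without the ZNF652 copy. Runs over the core, 50.5% of 293 windows, moved to 41.3% at 11 nt and 27.6% at 12 nt, and were 47.1% within 100 bp, 49.1% at Even summits, 51.6% with the best Even peaks and 50.3% without the ZNF652 copy. The alternatives for the core and the canonical transcript were chosen after seeing the data, and the cause of these shifts was not tested. No paired analysis was possible because each list holds 1 value per pool, and replicates could not be left out for the same reason. Partners resting on few tags limit the precision of the Even values.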
